A study of Mus musculus with 12 samples.

Results

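Knockout and wild type kidney medulla were hybridized against each other on 6 of the 12 arrays of the series, and these direct arrays are described here. They were chosen by their titles, which pair a wild type mouse with a knockout mouse. The animals were 3 wild type mice (WT1 to WT3) and 3 mice lacking aquaporin-1 (KO1 to KO3). Per the study's methods they were adults. The labels name inner medulla as the tissue, while the paper names the kidney medulla. Strain, sex and the knockout allele are not given in the sources used here. The RNA of each mouse was hybridized by itself, with no pooling. On 3 of these arrays the design placed the wild type sample in the green channel and the knockout sample in the red channel, each channel being one Alexa Fluor dye, namely WT2 against KO1, WT3 against KO1 and WT3 against KO2. In the other 3 the dyes were exchanged, with KO2 against WT1, KO3 against WT2 and KO3 against WT1. The other 6 arrays paired mice of the same genotype.

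Aquaporin-1 is the water channel of the proximal tubule, the descending thin limb of Henle's loop and the descending vasa recta. It lets water leave these segments, which is part of how the kidney builds up the high salt and urea of the medulla and concentrates urine. Mice without it make dilute urine. Medullary cells meet the high osmolality around them with organic osmolytes and with chaperones such as Osp94.

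The array held the NIA Mouse 15 K set of cDNA clones, each printed in duplicate. The deposited table gives, for 15600 clones with 0 missing values, the linlog intensity in green minus that in red, a log2 ratio where both channels are bright and a linear scale where they are dim. Each value was turned here to knockout minus wild type, so that a negative value is lower in the knockout mouse and a difference of -1 is a 2-fold lower level wherever the log2 scale holds. The part of the layout that was held describes 336 clones (2.15%), and the other 15264 have an identifier only. Every clone in that part has an identifier ending in G01, G07, H01 or H07, so the described clones are not a random draw from the array. Of the described clones, 200 could be given a current RefSeq symbol. The layout as held names neither Aqp1 nor defining genes of the medullary segments, and these were not analysed here, so neither the genotype labels nor the tissue could be checked on them.

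Each mouse was on 2 direct arrays, and the 6 arrays form a closed ring. KO1 and WT1 were labelled in red on both of their arrays, KO3 and WT3 in green on both, and KO2 and WT2 in each dye. Arrays that share a mouse are not independent, so the mouse was the replicate. The difference between the genotypes fitted over all 12 arrays equals the mean of the 6 direct arrays. The same-genotype arrays only add to the estimate of the spread between mice. That spread is taken over the fitted mouse effects, so it holds array error as well as differences between animals. The SD of the ratios over clones lay between 0.483 and 0.654 on the direct arrays, with a mean of 0.565 ± 0.0726 (SD, n = 6), and it was 0.623 ± 0.164 (SD, n = 6) on the same-genotype arrays. The difference of -0.0577 was within the spread between arrays (two-sided exact permutation test, p = 0.487). The scanner files of the study carry a day in their names, and the pair of direct arrays of each knockout mouse carries a day that no other direct array has. Day and knockout mouse thus cannot be told apart. The array of WT1 against WT2, which pairs mice of the same genotype, correlated at down to -0.38 with other arrays in green minus red, and below -0.3 with 4 of them. It does not enter the mean difference between the genotypes, only the spread between mice. Among the direct arrays the lowest such correlation was -0.16.

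With the 3 mice of each genotype as replicates, 0 of 15600 clones (0.00%) passed a Benjamini-Hochberg adjusted p under 0.05 in limma, where the lowest adjusted p reached 0.213. No filter on signal was applied here, whereas the paper left out genes with low signal in all samples. An unadjusted p under 0.05 was found for 1486 clones (9.53%), 464 of them higher in the knockout mice (2.97%) and 1022 lower (6.55%). Without moderation the plain fit gave 0 adjusted calls and 1238 clones (7.94%) at an unadjusted p under 0.05. The median difference was -0.0013 (log2 scale), with a 5th percentile of -0.565 and a 95th percentile of 0.366. The lower tail was the longer one. A difference of at least 1 was reached by 36 clones that were higher and 211 that were lower in the knockout mice. Of these, 19 and 131 had the same sign on all 6 direct arrays.

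The same sign on all 6 arrays was found for 304 clones that were higher (1.95%) and 726 that were lower (4.65%). Their median differences were 0.32 and -0.60. The 3 knockout mice lay above all 3 wild type mice for 1074 clones (6.88%) and below them for 1382 (8.86%). Among the 336 described clones, 6 were higher (1.79%) and 29 were lower (8.63%) on all 6 arrays. At an unadjusted p under 0.05, 5 described clones were higher (1.49%) and 34 lower (10.1%). None of the 336 reached a difference of 1 upward, and 11 reached it downward (3.27%). The shares of lower clones were thus larger among the described clones than over all clones, and this was not tested. The described clones come from one part of the layout, so this does not compare named with unnamed genes in general.

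The described clone with the smallest p among those past a difference of 1 was H3143H07, which holds Hspa4l, listed in the layout as osmotic stress protein Osp94. It encodes a chaperone of the Hsp110 family that medullary cells make more of under hypertonic conditions. Its values, knockout minus wild type, were -1.14 for WT2 against KO1, -0.64 for WT3 against KO1, -1.42 for WT3 against KO2, -2.01 for KO2 against WT1, -2.24 for KO3 against WT2 and -2.06 for KO3 against WT1. All 6 arrays were low, least so where KO1 was compared. The mean was -1.59 with a standard error of 0.28 over mice, a 3.00-fold lower level in the knockout mice, and the 3 mice of each genotype did not overlap. The adjusted p in limma over mice was 0.281.

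H3131G01 holds Hikeshi, listed as 0610007P06Rik, the carrier that takes Hsp70 chaperones into the nucleus. Its values were -0.65 and -1.61 on the arrays of KO1, -0.91 and -0.84 on those of KO2 and -0.61 and -0.85 on those of KO3, in the order given above. The 6 arrays lay close together apart from WT3 against KO1. The mean was -0.91 (standard error 0.13, 1.88-fold lower), with an adjusted p of 0.248 in limma over mice, the smallest among the described clones.

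H3103H07, listed as elafin-like protein I (SWAM1) and now Wfdc15b, belongs to the whey acidic protein family of secreted proteins, many of which inhibit proteases. It was at -2.10 and -2.89 on the arrays of KO1, at -0.47 and -1.36 on those of KO2, and at -2.09 and -0.94 on those of KO3. It had the lowest mean of the described clones that were lower on all 6 arrays, -1.64 (standard error 0.37, 3.12-fold lower, adjusted p in limma 0.336). The arrays of KO2 were the nearest to 0 when the pair was averaged.

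Several of the clones that were lower on every array encode proteins of mitochondria. H3080H01 holds Uqcrc1, a core subunit of complex III, and was at -0.66, -0.89, -1.27, -1.06, -0.97 and -1.46 in the array order given above. All were more than 0.5 below 0, and the mean was -1.05 (standard error 0.29, adjusted p in limma 0.377). H3152H07 holds Ndufb5, a subunit of complex I, and was at -0.97, -1.42, -0.13, -0.51, -1.07 and -0.61, with a mean of -0.78 (standard error 0.25). H3120H07, described as similar to cytochrome c oxidase III, was at -1.35, -1.89, -0.26, -2.11, -2.05 and -0.71, with a mean of -1.40 (standard error 0.57). In the fit over all 12 arrays its effect was 0.23 in KO1 and 0.06 in WT3, so the mice of the genotypes overlapped there. The direct array of WT3 against KO1 read -1.89, and its conflict with the fit was not tested. For this clone and for Ndufb5 the array of WT3 against KO2 was the least low. H3068G07 holds Pdha1, the E1 alpha subunit of pyruvate dehydrogenase. It lay between -0.99 and -0.47 on the 6 arrays with a mean of -0.67 (standard error 0.30). Its mice overlapped as well in that fit, with effects of 0.34 in KO1 and 0.20 in WT2, while the direct array of WT2 against KO1 read -0.47.

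H3116G07 holds Tspan6 (listed as Tm4sf6), a tetraspanin of the cell membrane. It was at -0.78, -0.69, -1.69, -1.74, -0.28 and -1.15, lowest on both arrays of KO2, with a mean of -1.06 (standard error 0.25, adjusted p in limma 0.340). H3069G07 (Unc50) had a mean of -1.02, H3119G07 (Trmt5, a tRNA methyltransferase) one of -1.02 and H3081H01 (similar to human KIAA1437) one of -0.91. These 3 completed the 10 lowest described clones with the same sign on every array. Unc50 was at -1.85 on the array of KO3 against WT2 and between -0.98 and -0.55 on the others. H3139H01 (Gatd3a), which was named for its small p, had a mean of -0.67 with a standard error of 0.13 and an adjusted p of 0.290 in limma.

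The 6 described clones that were higher on every array had smaller differences. H3077G07 holds Evpl, envoplakin, a plakin that links intermediate filaments to cell junctions in stratified epithelia. It was at 1.81, 0.02, 0.10, 0.78, 0.19 and 1.26, so that 3 of the arrays carried most of the mean of 0.69 (standard error 0.15, 1.62-fold higher, adjusted p in limma 0.313). H3108G07 (Tmem254a) had a mean of 0.59, of which the array of KO2 against WT1 gave 2.05 and the others between 0.02 and 0.68. H3121H01, which matches an unnamed cDNA, H3157H01, a predicted immunoglobulin-like protein, and H3114G01, a phospholipase homolog, had means of 0.33, 0.28 and 0.16. The other described clones with the smallest p upward were H3100H01 (Mcrs1) at 0.33 and H3007G01 (MGC31290) at 0.42, each with an adjusted p of 0.438 in limma. Mcrs1 was below 0 on all 3 arrays with the knockout sample in red and above 0 on the 3 with it in green.

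**Figure D1:**
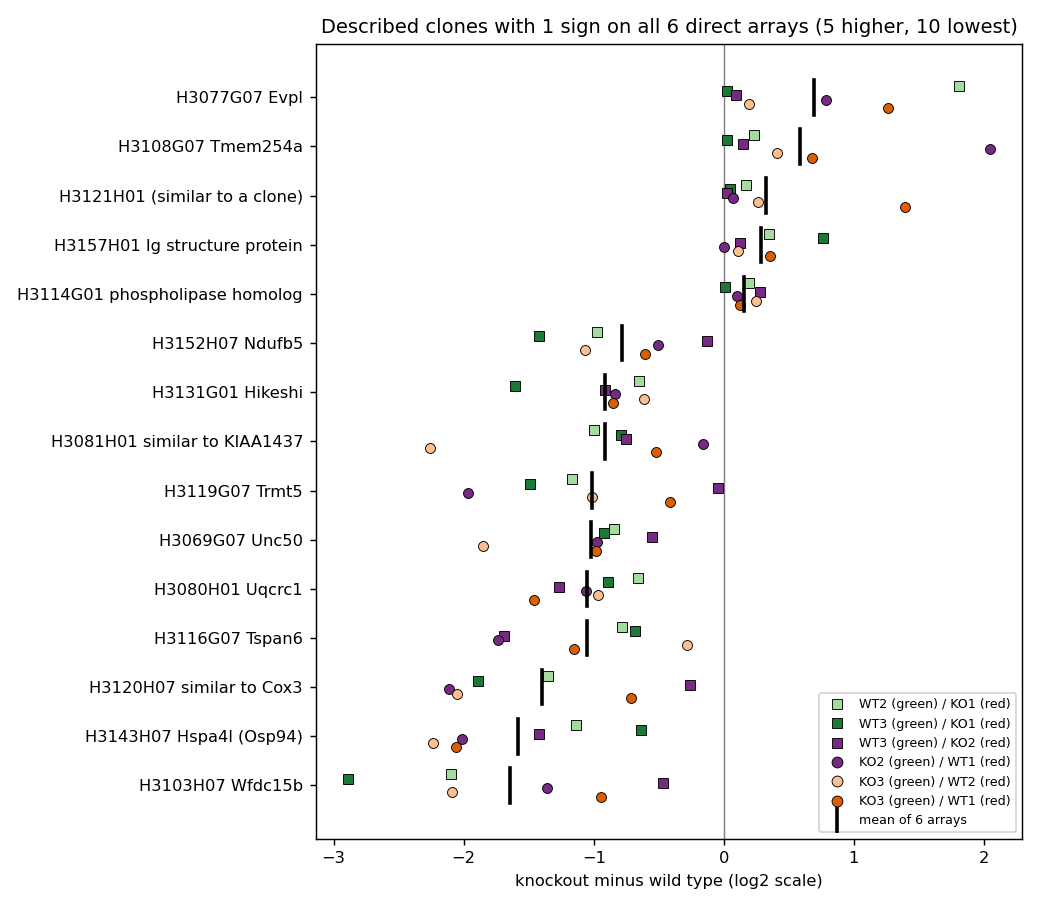
Knockout minus wild type on the log2 scale (x axis) for 5 of the 6 described clones that were higher and the 10 lowest of the 29 that were lower on all 6 direct arrays (y axis, clone and gene). Squares are arrays with the knockout sample in red and circles arrays with it in green, colours are knockout mice, and black bars are means of 6 arrays. The lower clones reach means of -1.64 (Wfdc15b) and -1.59 (Hspa4l), while the higher clones stop at 0.69 (Evpl).

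Clones without a description held the smallest p-values in both directions. H3142D06 was at 2.34, 1.48, 1.77, 1.23, 0.03 and 1.16, with a mean of 1.33 (standard error 0.11) and the smallest adjusted p of all clones, 0.213 in limma over mice. H3076E06 was at 2.81, 1.92, 1.33, 2.35, 0.28 and 0.25, with a mean of 1.49. On both clones the array of KO3 against WT2 was close to 0. In the other direction, H3104D07 lay between -2.44 and -1.61 on the 6 arrays with a mean of -1.93 (standard error 0.20, 3.80-fold lower). H3113C05 lay between -2.31 and -0.90 with a mean of -1.69 (standard error 0.19). Both had an adjusted p of 0.232 in limma.

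If the 6 arrays were taken as replicates, with a term for the dye orientation, 103 clones passed (0.660%), 15 higher (0.0962%) and 88 lower (0.564%). Of these, 97 had the same sign on all 6 arrays, 102 had an unadjusted p under 0.05 over mice, and for 88 the mice of the genotypes did not overlap. The described ones were Hspa4l, Uqcrc1, Hikeshi and Unc50, with adjusted p-values in limma of 0.0105, 0.0386, 0.0496 and 0.0492, and all were lower in the knockout mice. Every mouse is on 2 arrays, so these p-values leave out the spread between mice and are too small.

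The described clones were further grouped into 8 lists with 84 members in all, by what their genes are known to do. In every list 0 members passed the adjusted threshold over mice in limma, and the counts at an unadjusted p under 0.05 are given with each list. The list of mitochondrial energy metabolism stood lowest. Its 12 members all had a mean below 0, against 50.3% of all clones and 56.8% of the described clones. Their median difference was -0.58 against -0.0013 over all clones and -0.04 over the described clones. Of the 12, 4 were lower on all 6 arrays (33.3%, against 4.65% of all clones and 8.63% of the described clones). In 4 the knockout mice lay below all wild type mice (against 8.86% of all clones and 13.7% of the described clones). At an unadjusted p under 0.05, 5 were lower (against 6.55% of all clones and 10.1% of the described clones). These 5 include H3120H07 and H3102H01, which carry the same description, similar to cytochrome c oxidase III. Beside those described above they included H3010G07 (Ak4, an adenylate kinase of the mitochondrial matrix), which was at -1.84, -2.48, -0.13, -1.27, -1.53 and 0.15 with a mean of -1.18. Its mice overlapped in the fit over all 12 arrays, with effects of 0.29 in KO1, 0.19 in WT1 and 0.24 in WT3. The direct array of WT3 against KO1 read -2.48, and its conflict with the fit was not tested. H3123H01 (Hsd17b10, a mitochondrial dehydrogenase) had a mean of -0.49 and H3133H07 (VDAC, the pore of the outer membrane) one of -0.36. Nearer to 0 were H3124H01 (the PDSW subunit of complex I) at -0.23 and H3005G01 (Gpd2) at -0.18. H3138H07 (trifunctional enzyme alpha subunit) was at -0.17 and H3123H07 (Ndufa13) at -0.12. The list's median was below 0 on each of the 6 arrays, between -0.76 and -0.25. The clones were gathered with earlier results of these data known, so the low median is a description of the list only.

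Among 6 clones of osmotic stress and chaperones, 5 had a mean below 0 (83.3%, against 50.3% of all clones and 56.8% of the described clones). The median was -0.24. Hspa4l was the only member that was lower on every array (16.7%, against 4.65% of all clones and 8.63% of the described clones). It was also the only one with an unadjusted p under 0.05 (16.7%, against 6.55% of all clones and 10.1% of the described clones lower). H3074G01 (Dnaja3, an Hsp40 co-chaperone of mitochondria) was at -0.35, -0.61, -1.0, 0.09, -0.21 and -1.0, with a mean of -0.51 and mice that did not overlap. H3023G01 (Hsp90aa1) had a mean of -0.28 and a standard error of 0.35, within the spread between mice.

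The 9 clones of transport and prostaglandins had a median of -0.06, and 0 of them had the same sign on every array. An unadjusted p under 0.05 was found for 2 of the 9, H3092H01 and H3084H07, both lower, where 6.55% of all clones and 10.1% of the described clones were lower. H3092H01 holds Atp6v1a, the catalytic subunit of the proton pump that acidifies urine in intercalated cells. It was at -1.42, -1.27, -1.35, -1.62 and -1.02 on the first 5 arrays and at 0.33 on the array of KO3 against WT1, with a mean of -1.06 (standard error 0.38, adjusted p in limma 0.465). H3084H07, similar to a lysine-deficient protein kinase (the WNK family, which regulates salt transport), had a mean of -1.06 that came from a value of -6.80 on the array of WT3 against KO2. Its other 5 values lay between -0.25 and 0.56. H3106H07 (Slco2a1, the prostaglandin transporter) was at 0.37 and H3049G07 (Ptges, prostaglandin E synthase) at -0.18, with standard errors of 0.30 and 0.14. H3034G01 (Trpm7, a channel for divalent cations) was at -0.16, a small difference in which the mice nevertheless did not overlap.

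Membrane traffic and tetraspanins, with 11 clones, had a median of -0.08, and 2 members were lower at an unadjusted p under 0.05 (18.2%, against 6.55% of all clones and 10.1% of the described clones). Scamp2 (H3142G07), a protein of secretory and recycling vesicles, was at -0.50, -0.95, -0.56, -0.003, -0.12 and -0.65 on the arrays, with a mean of -0.46 (standard error 0.12, adjusted p in limma 0.359). Together with Tspan6 it made up those 2 members. Both were also lower on all 6 arrays (18.2%, against 4.65% of all clones and 8.63% of the described clones). The value of Scamp2 on KO2 against WT1 lay just below 0. CD63 (H3075G01), a tetraspanin of late endosomes, was at -1.43, -1.73 and -1.12 with the knockout sample in red and at 0.23, -0.82 and -0.12 with it in green, and its mean was -0.83.

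Growth factor signalling, with 12 clones, had a median of 0.05, and 0 members had the same sign on all arrays or an unadjusted p under 0.05. H3154G07 (Igfbp3, which binds insulin-like growth factors) was at 1.71 and 0.74 on the arrays of KO1 and between -0.14 and 0.20 on the other 4. The means of H3055G07 (Tgfb2), H3146H01 (Ltbp1, which holds latent TGF-beta in the matrix) and H3105G07 (Bmpr1a) were 0.25, -0.22 and -0.26. In matrix, cytoskeleton and junctions, 10 of 13 clones had a mean above 0 (76.9%, against 49.7% of all clones and 43.2% of the described clones). The median was 0.05. Evpl was the only one that was higher on every array (7.69%, against 1.95% of all clones and 1.79% of the described clones). H3039H01 (Cnn2, a calponin that binds actin) was at -0.31 with mice that did not overlap, and it and Evpl were the members with an unadjusted p under 0.05. Each made up 7.69% of the list, against 6.55% of all clones lower and 2.97% higher at that p. Among the described clones these shares were 10.1% and 1.49%. The median of this list was -0.14 with the knockout sample in red and 0.25 with it in green.

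The ribosome and translation list, with 12 clones, had a median of -0.18 that hid a difference between mice. Its median was -0.56 over the arrays of KO1, 0.19 over those of KO2 and -0.29 over those of KO3. The array of WT3 against KO1 was the lowest, at -1.0, and that of KO2 against WT1 the highest, at 0.24. H3084G07, similar to ribosomal protein L30, had a mean of -0.55 (standard error 0.17). It was the only member lower on every array (8.33%, against 4.65% of all clones and 8.63% of the described clones). It was also the only one with an unadjusted p under 0.05 (8.33%, against 6.55% of all clones and 10.1% of the described clones lower).

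The 9 blood and immune cell markers had a median of 0.11, and 7 of 9 had a mean above 0 (77.8%, against 49.7% of all clones). In 0 of the 9 did the mice of the genotypes separate or the unadjusted p fall under 0.05. The 2 clones of Hba-x, an embryonic alpha-like globin whose sequence resembles that of the adult alpha globins so that the source of the signal is uncertain, moved together from array to array. H3125H07 was at -1.42, -1.65, 1.17, 1.67, 0.42 and 1.82, and H3126H01 at -0.51, -1.30, 1.14, 1.39, -0.07 and 1.49. Both were low on the arrays of KO1 and high on both arrays with KO2 and on KO3 against WT1. The mean differences were 0.33 and 0.36 with a standard error of 0.47 each, within the spread between mice. Both globin clones and the median of the ribosomal list were below 0 on both arrays of KO1, the ribosomal list also on KO3 against WT2 (-0.43), and their part in the other values of these arrays was not tested.

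**Figure D2:**
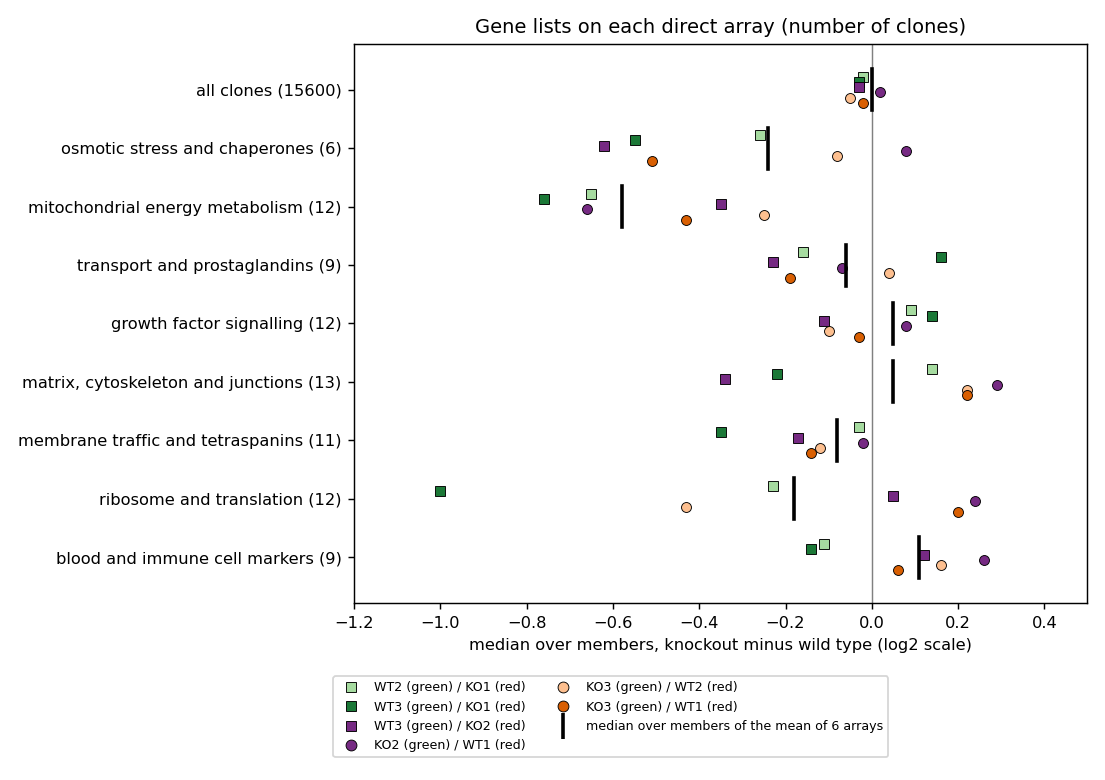
Median over the members of each gene list (y axis, number of clones in brackets) of knockout minus wild type on the log2 scale (x axis). Each point is a direct array, squares with the knockout sample in red and circles with it in green, and the black bar is the median over members of the mean of 6 arrays. Mitochondrial energy metabolism lies below 0 on every array, from -0.76 to -0.25, and ribosome and translation spreads from -1.0 to 0.24.

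For 4 genes the lists hold a pair of clones, which gives a check of the values that does not depend on the mice. The Hba-x clones differed by a median of 0.34 over the 6 arrays. For the pair similar to cytochrome c oxidase III, H3120H07 and H3102H01, the median gap was 1.04 and the largest 2.04. H3102H01 was at -1.36, -2.66, -0.40, -0.80, -0.01 and 0.87, so it was lower on 5 arrays but not on KO3 against WT1, and its mean was -0.73 against -1.40 for its partner. The 2 clones were farthest apart on the arrays with the knockout sample in green, which are KO2 against WT1 and both arrays of KO3. On KO2 against WT1, H3120H07 was at -2.11 and H3102H01 at -0.80. The clones of Gnaq differed by a median of 0.62 and at most by 1.56, with the same sign on all 6 arrays. Those of Vps26a differed by a median of 0.20, but had the same sign on only 3 of the 6.

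**Figure D3:**
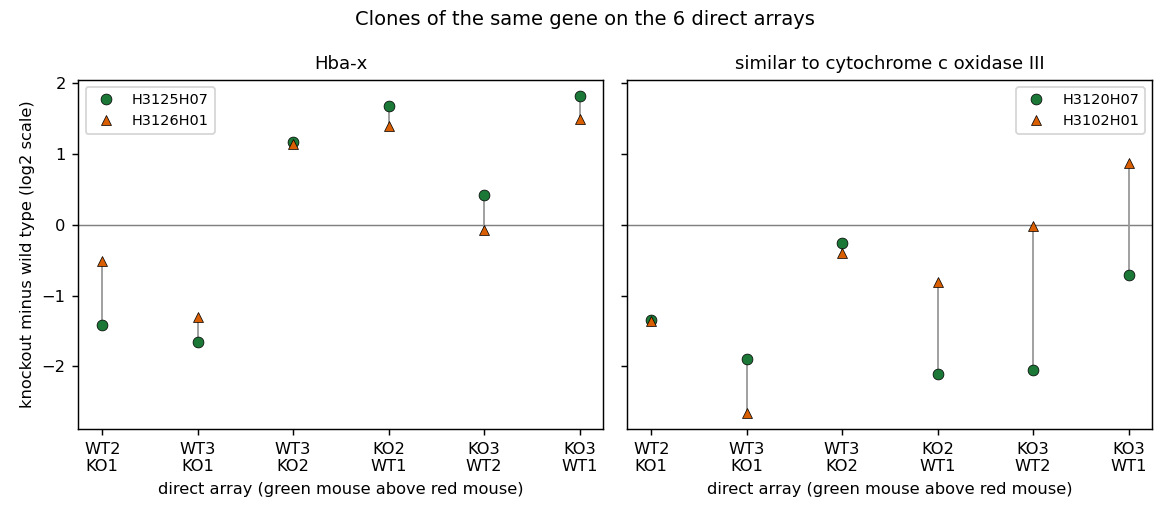
Knockout minus wild type on the log2 scale (y axis) on the 6 direct arrays (x axis, green mouse above red mouse) for the 2 clones of Hba-x (left) and the 2 clones similar to cytochrome c oxidase III (right). Grey lines join the clones on an array. The Hba-x clones follow each other with a median gap of 0.34, and the other pair is farthest apart on KO3 against WT2, at -2.05 and -0.01.

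The question of how far the arrays hold the same differences was approached by correlating them over all clones, as a description, since clones are not independent of each other. A difference common to all mice would raise the correlation of arrays with no mouse in common, by less the fewer clones carry it. All clones entered with no filter on signal, and r over brighter clones alone was not computed. For the 9 such pairs the median Pearson r was 0.009. It was between -0.021 and 0.111 in the 7 pairs of opposite dye orientation, and it was 0.163 and 0.270 in the 2 pairs of the same orientation. The arrays of KO1 correlated at 0.511 and those of KO3 at 0.468, and within each of these pairs the orientation was the same. The arrays of KO2, which had opposite orientations, correlated at -0.052. Pairs that shared WT1, WT2 and WT3 were at 0.301, 0.163 and 0.175. Over the 336 described clones alone, the median of the 9 pairs without a common mouse was 0.134.

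**Figure D4:**
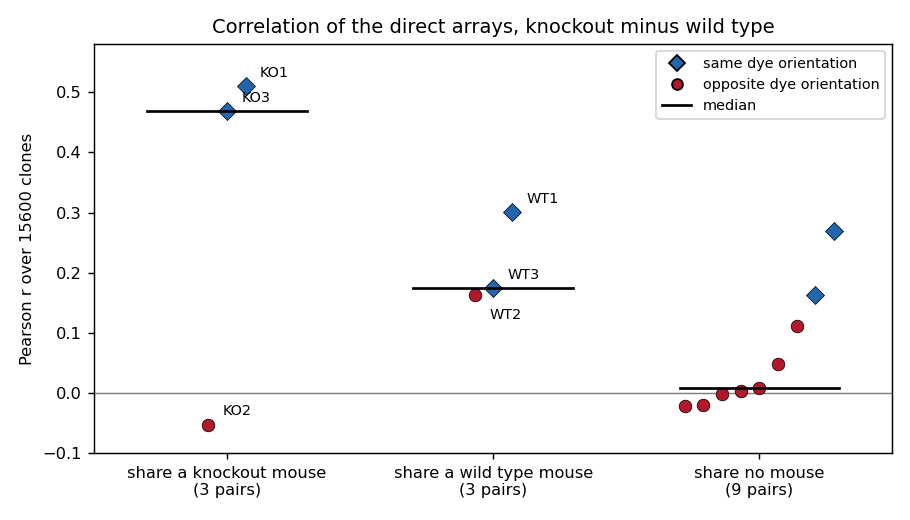
Pearson r over 15600 clones (y axis) between the knockout minus wild type values of 2 direct arrays, for each of the 15 pairs, grouped by the mouse they share (x axis, labels name the shared mouse). Blue diamonds are pairs of the same dye orientation, red circles pairs of opposite orientation, and lines are medians. The pairs of KO1 (0.511) and KO3 (0.468) stand above the rest, and the pair of KO2 with its opposite orientations is at -0.052.

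The mean over the pair of arrays of a mouse holds the dye effect in full for KO1 and KO3, and for WT1 and WT3, which were in the same dye on both arrays. For KO2 and WT2 the dye cancels. Averaged over its pair of arrays, KO1 was at least 1 higher in 223 clones and at least 1 lower in 534. For KO2 the counts were 162 and 200, and for KO3 they were 574 and 620. A difference of that size was found in at least 1 knockout mouse for 908 clones upward and 1103 downward, and in all 3 knockout mice for 8 and 40. The only described clone among these 40 was H3120H07, similar to cytochrome c oxidase III, whose mice overlapped between the genotypes in the fit over all 12 arrays. The sign was the same on both arrays of a mouse for 69.9% of clones in KO3, 60.2% in KO1 and 45.7% in KO2, and for 59.1% in WT1, 55.3% in WT3 and 50.8% in WT2. In both genotypes the mouse labelled in both dyes had the lowest share, and the parts of dye and mouse in these counts were not tested.

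The same pairs of mice could also be followed outside the direct arrays. Where a pair of direct arrays shares a mouse, it gives the difference between the other 2 mice, which have the same genotype and were also hybridized against each other. Over all clones these estimates correlated at 0.305 for KO2 and KO3, 0.196 for WT1 and WT2, 0.012 for WT2 and WT3 and -0.234 for KO1 and KO2, where the dye cancels between the direct arrays. In the pairs where it does not cancel, r was 0.080 for WT1 and WT3 and -0.107 for KO1 and KO3. The median of the 6 pairs was 0.046, and 2 of the 6 were below 0. With the sign of the array of WT1 against WT2 turned, its r became -0.196, the median -0.048, and 3 of the 6 were below 0. Disagreement between these estimates enters the spread between mice, and its share there was not tested.

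The direct arrays differed by dye orientation as well as by mouse. With limma on the 6 arrays, 16 clones (0.103%) differed between the orientations at an adjusted p under 0.05, and 2622 (16.8%) at an unadjusted p under 0.05, of which 1384 (8.87%) were higher and 1238 (7.94%) lower with the knockout sample in green. The knockout value was higher with the knockout sample in green for 11 of the 16 (0.0705%) and lower for 5 (0.0321%). With any 1 of the 6 arrays left out, 0 to 5 clones passed, and in the plain fit without moderation 0 did. The comparison takes arrays as replicates, so its p-values are too small. KO1 and WT1 were in red only and KO3 and WT3 in green only, so the dye and the differences among these mice cannot be told apart within the 6 arrays. The spread of the ratios was 0.621 ± 0.0495 (SD, n = 3) with the knockout sample in green and 0.508 ± 0.034 (SD, n = 3) with it in red. The difference of 0.113 had p = 0.1 in a two-sided exact permutation test, the smallest p that 3 arrays against 3 allow.

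H3153D01 had the largest difference between orientations. It was at -5.50, -5.26 and -4.62 with the knockout sample in red and at 4.24, 6.02 and 4.75 with it in green, a difference of 10.13 (standard error 0.48, adjusted p in limma 0.00245). The sample in the green channel was higher on all 6 arrays, whatever its genotype, and the mean of the 6 was -0.06. H3138A03 and H3052B01 behaved alike, with orientation differences of 7.05 and 6.76. These 3 have no description and were picked after their values were seen. The only described clone among the 16 was H3117H07, now Ampd2, an AMP deaminase. It was at -0.57, -0.89 and -1.11 with the knockout sample in red and at 0.85, 1.14 and 1.15 with it in green, with a difference of 1.90 (standard error 0.21, adjusted p in limma 0.0487). The 5 clones that were lower with the knockout sample in green were H3021C05, H3023F10, H3051C05, H3103B07 and H3115D07, with differences from -2.26 to -1.61.

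Among described clones, the orientation difference was largest upward for H3140G01 (Timeless, a protein of the replication fork), at 2.59. Its values were -1.35, -0.57 and -1.58 against 1.25, 1.79 and 1.24, and the adjusted p in limma was 0.0546. H3084H07 followed at 2.36, through its value of -6.80, and H3044G01 (Ctnna1, alpha-catenin of adherens junctions) at 2.10. Ctnna1 was at 1.75 and 3.19 on the arrays of KO3 and between -0.95 and -0.03 on the other 4, so that KO2 against WT1, the remaining array with the knockout sample in green, lay with those of the other orientation. Downward the largest were H3093H01 (MGC37173) at -1.28, H3078H01 (Haus2, a subunit of the augmin complex of the spindle) at -1.04 and Hspa4l at -1.04. H3093H01 was at 0.39, -0.60 and -1.07 against -1.94, -1.44 and -1.73, with a mean over all 6 of -1.07. Haus2 was at 2.34 on WT3 against KO2 and between -0.50 and 0.03 elsewhere. For Hspa4l the mean was -1.07 with the knockout sample in red and -2.10 with it in green, below 0 in both.

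Over all clones, 1483 (9.51%) were on one side of 0 on all 3 arrays of an orientation and on the other side on all 3 of the other, more than the 1030 (6.60%) with the same sign on all 6. Among the described clones the order was turned, with 21 (6.25%) against the 6 higher and 29 lower given above. The same-genotype arrays give a dye effect and mouse differences of their own, from which the orientation difference can be computed without the direct arrays. Over all clones the 2 estimates correlated at -0.153, and they had the same sign for 45.7% of clones and for 10 of the 16 called. For H3153D01 the computed value was 10.56, close to the 10.13 measured, while for Ampd2 it was -1.21 against 1.90. The dye effect from the ring of direct arrays correlated at 0.228 with that from the same-genotype arrays. With the array of WT1 against WT2 turned, these correlations were -0.142 and -0.058, 3 of the 16 called clones had the same sign, and the computed values were -3.84 for H3153D01 and -3.91 for Ampd2. With the sign as deposited, the fit over all 12 arrays gave H3153D01 a dye effect of 4.92 (5.18 from the direct and 5.03 from the same-genotype arrays) and mouse effects between -0.66 and 0.68. For H3052B01 the dye effect was 3.07, with mouse effects between -0.38 and 0.80.

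**Figure D5:**
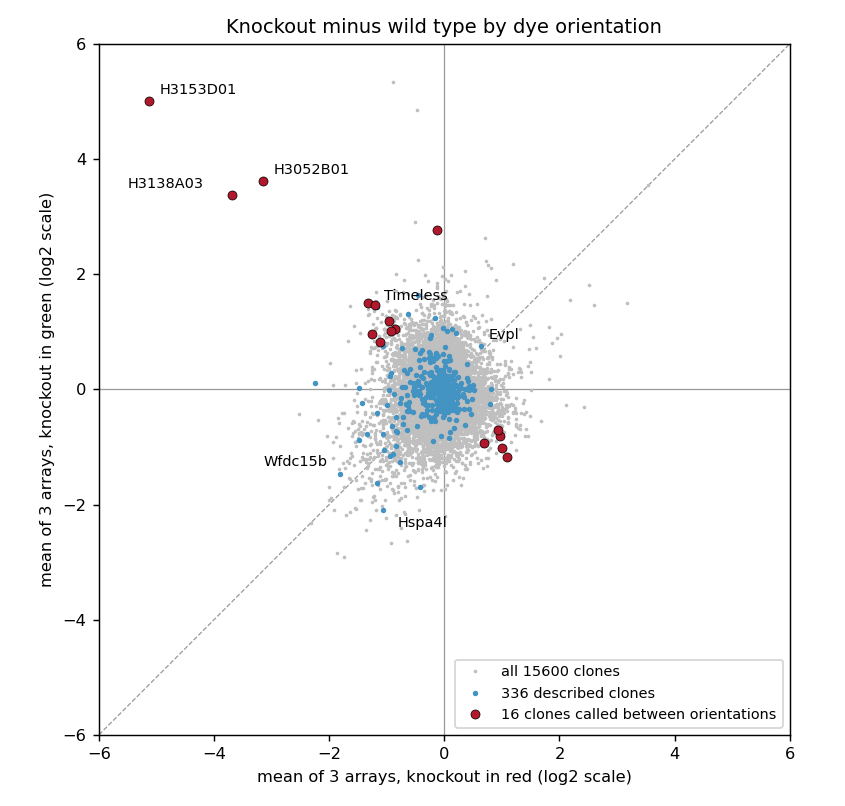
Mean knockout minus wild type on the log2 scale of the 3 arrays with the knockout sample in red (x axis) and in green (y axis). Grey points are all 15600 clones, blue points the 336 described clones and red circles the 16 clones that differed between orientations, and the dashed line marks equal means. Hspa4l and Wfdc15b lie in the lower left, below 0 in both orientations, while H3153D01 lies at -5.13 and 5.0.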

How the data were processed

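The series matrix of the 12 arrays was used. Per the methods, the authors scanned each array, located the spots again, subtracted background, applied a linlog transform and normalized by lowess on intensity and spot position. The deposited values are log2-scale differences, green minus red, 1 per clone, with duplicate spots averaged, so spot-level noise and background flags cannot be seen and a fold holds only above the linear range. The scanner files served only to check the channel direction, and their names for the day. Clones were named from the layout table as held, and symbols updated through RefSeq gene names.

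Mouse effects were fitted by least squares with a dye term on the 12 arrays, and the 3 knockout and 3 wild type effects were then compared with limma 3.58.1 in R 4.3.3 (4 residual degrees of freedom, Benjamini-Hochberg over 15600 clones, adjusted p under 0.05). Dye orientations were compared with limma on the 6 direct arrays. Spreads were compared by exact permutation tests. The p-values over mice rest on the spread of the fitted effects of 3 animals a group. This spread holds array error as well as differences between animals, and these parts were not separated. The number of arrays limits precision, and no depth applies.

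Named clones were described clones with the same sign on all 6 direct arrays (the 10 largest a direction), the 3 smallest p-values and the 3 largest orientation differences a direction, the 2 smallest p-values a direction among undescribed clones, and list members singled out in the text; 1 clone that the rule names is not reported here. The clones and gene lists were chosen with earlier results of these data known. The channel direction was checked against the scanner signals and was positive on 12 of 12 arrays. The limma steps were tested on simulated data. Centring, scaling, priors, thresholds, units of replication and leaving out mice or arrays were tried as alternatives.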

Additional observations from a re-analysis of the deposited data

Results flagged for a closer look

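Among 57 clones whose 6 direct arrays were examined, 8 had 1 array whose gap to the nearest other array was past the limit of Dixon's test for 6 values. Chance passes that limit in about 1 group of 20 where the values played no part in choosing the group. Part of the 57 clones were chosen by these same 6 values, so their count was not compared with that rate. The array of WT3 against KO1 stood apart for H3055G07 (Tgfb2) at 1.17 and for H3131G01 (Hikeshi) at -1.61. WT3 against KO2 did so for H3078H01 (Haus2) at 2.34 and for H3084H07 (similar to a lysine-deficient kinase) at -6.80. KO3 against WT1 did so for H3092H01 (Atp6v1a) at 0.33 and H3121H01 at 1.39, KO3 against WT2 for H3069G07 (Unc50) at -1.85, and KO2 against WT1 for H3108G07 (Tmem254a) at 2.05.

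A difference between the dye orientations, knockout in green minus knockout in red, was found for the following clones, in each of which the 3 arrays of an orientation lay on one side of 0 and the 3 of the other on the other side. It was 10.13 for H3153D01 (adjusted p in limma 0.00245), 7.05 for H3138A03, 6.76 for H3052B01 and 1.90 for H3117H07 (Ampd2, adjusted p 0.0487). It was -2.26 for H3103B07, -2.03 for H3051C05, -1.78 for H3021C05, -1.65 for H3115D07 and -1.61 for H3023F10. H3140G01 (Timeless) at 2.59 and H3100H01 (Mcrs1) at 1.14 had the same pattern but did not pass the threshold, with adjusted p-values of 0.0546 and 0.194 in limma. The orientations hold different mice, so dye and mouse cannot be told apart within the 6 direct arrays. Over all 12 arrays, the fitted dye effect of H3153D01 was 4.92 with mouse effects between -0.66 and 0.68, and that of H3052B01 was 3.07 with mouse effects between -0.38 and 0.80.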

How the results depend on the processing

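Over mice, 0 clones were called under the other priors, centring, scaling, dye term, array weights and stricter thresholds, with knockout or wild type mouse means tested against 0, and in the 18 settings that left out a mouse or array (0 to 0 calls, 980 to 1817 clones at an unadjusted p under 0.05). With the 6 arrays as replicates there were 103 calls, 63 without the orientation term and 122 with one correlation for shared mice. That correlation was estimated at -0.01, so the setting made almost no allowance for shared mice. With the sign of the array of WT1 against WT2 turned, an alternative chosen after seeing the data, there were 3. With the mouse number as a replicate block there were 0 calls and 1328 clones at an unadjusted p under 0.05. The deviations of same-numbered mice correlated at -0.077, -0.239 and -0.042, and 0 of 6 mice correlated best with their own number. Since 3 correlations over clones that are not independent cannot show whether such mice were paired, the numbers were taken as names only.

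The 16 orientation calls fell to 0 in the plain fit, to 1 with a robust prior, to 1 with scaled arrays and to 1 at an adjusted p under 0.01, and lay between 0 and 5 with an array left out. Over the described clones the median correlation of arrays sharing a wild type mouse was 0.32, of those sharing no mouse 0.134 and of those of opposite orientation 0.093. The dye effects correlated at 0.195 by Spearman's rho and at 0.182 after scaling, and at -0.058 with the array of WT1 against WT2 turned. Leaving out an array moved the difference in spread to between -0.102 and -0.00321 for direct against same-genotype arrays and to between 0.0966 and 0.141 for the orientations.

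Of 672 values of 48 clones, 659 kept their sign. The 13 others belong to clones that depend on a mouse or array. Scaling turned H3140G01 (Timeless) to -0.06. With a mouse or array left out, H3140G01 ranged from -0.27 to 0.50 (lowest without WT3 against KO1), H3154G07 (Igfbp3) from -0.07 (without KO1) to 0.81, H3078H01 (Haus2) from -0.16 (without KO2) to 0.87, H3044G01 (Ctnna1) from -0.24 (without KO3) to 1.19, H3100H01 (Mcrs1) from -0.06 (without KO3) to 0.55, H3049G07 (Ptges) from -0.25 to 0.02 (without WT1) and H3084H07 from -2.81 to 0.21 (without WT3 against KO2). Others kept their sign but moved far, among them H3039H01 (Cnn2, -0.55 to -0.01), H3102H01 (similar to cytochrome c oxidase III, -1.39 to -0.14), H3106H07 (Slco2a1, 0.04 to 0.72), H3010G07 (Ak4, -1.79 to -0.59) and H3077G07 (Evpl, 0.39 to 1.15), while H3143H07 (Hspa4l) stayed between -1.92 and -1.41. Of 120 orientation differences of 15 clones, 0 turned their sign, and of the 72 values of the 9 clones that had passed, 56 were no longer past the threshold. The cause of these changes was not tested.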
